A study of Mus musculus with 8 samples.

Results

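In all, 9 genes of the follicular helper programme of CD4 T cells were followed across 4 sorted populations: Cxcr5, Bcl6, Maf, Il21, Icos, Cd40lg, Sh2d1a, Slamf6 and Cd200. Every non-control probe whose gene name, after older symbols were updated, is one of these symbols was taken, which gave 15 of the 41174 probes on the array and 9 of the 17996 genes tested. All 9 genes passed the filter on dim probes, which asked for a signal well above background on the 2 arrays of 1 group or more. The samples were 2 of naive, 2 of CD44lo, 2 of CD44hi and 2 of Treg cells (regulatory T cells), all sorted CD4 T cells from the spleens and lymph nodes, pooled, of C57BL/6 males aged 15 weeks. Per the series title, all 4 groups came from Ox40-cre/ROSA-YFP animals, a fate-mapping model in which Cre made from the Ox40 (Tnfrsf4) gene switches on YFP for good. The labels give neither the sort gates nor the YFP status of a group, and do not say whether the samples of a group came from separate animals. P-values therefore rest on a spread between samples that may be technical only.

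Follicular helper T cells are the CD4 cells that enter B cell follicles and help B cells form germinal centres. The chemokine receptor CXCR5 brings them toward the follicle, the repressor BCL6 directs the programme, and c-Maf promotes Il21 and other of its genes. Signals pass to B cells through the cytokine IL-21 and the ligand CD40L, while ICOS, the SLAM receptors and their adaptor SAP sustain the contact between the cells. Regulatory T cells that take on part of the programme enter follicles as well, and there restrain the reaction.

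The members were read by 60-base probes, and the bases that mark the genes with the largest differences are shown here, as the first 30 bases of each probe from 5′ to 3′ (build mm7, per the file headers). The Cxcr5 probe carries the older symbol Blr1 on the array and was matched through its RefSeq transcript; it lies on the minus strand at chr9:44446333-44446392. The Il21 probe lies on the minus strand at chr3:37033994-37034053. Maf has 4 probes on the minus strand, shown in the direction of transcription because they differed in response: the most upstream at chr8:114320622-114320681, then chr8:114318219-114318278, the brightest at chr8:114316751-114316810, and a distal one at chr8:114296183-114296241, 20569 bases downstream of the brightest.
Cxcr5: gggaaaccaatgctatagcttcagagactg
Il21: ttattctgaacttcgtatgtctgagtttta
Maf, most upstream: tcggcctctccccccaacccttttgctctc
Maf, second: acaagggccaaagatctgagcagcatactt
Maf, brightest: tgggtatgtgtagttcttgctataccatgg
Maf, distal: cctgaaaactgaggttggtatagcttatgg

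In the probe sequences nothing is capitalised, since no stretch was singled out. GC content was 58.3% over the 60 bases of the most upstream Maf probe, against 35.0% to 50% for the other 3.

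RefSeq promoter windows (GRCm38.p6) were matched for 4 of the 9 members, namely Bcl6 with 2 windows and Il21, Slamf6 and Cd200 with 1 each. The 250 bases before the start were searched on both strands for 4 motifs. These were TGANTCA (an AP-1 site), GGAAA (the core of an NFAT site), TTCNNNGAA (a STAT site) and TGCTGA (only part of a Maf recognition sequence). The Il21 window (chr3:37232637-37232886, minus strand) and the Bcl6 window at the more upstream start (chr16:23988853-23989102, minus strand) are shown as examples with matches. The other Bcl6 window holds more matches and is not shown. Capitals mark the matches.
Il21 promoter: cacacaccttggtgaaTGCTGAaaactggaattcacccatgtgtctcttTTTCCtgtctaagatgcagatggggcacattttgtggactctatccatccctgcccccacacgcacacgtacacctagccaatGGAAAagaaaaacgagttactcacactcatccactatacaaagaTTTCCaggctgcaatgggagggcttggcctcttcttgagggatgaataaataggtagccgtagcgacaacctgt
Bcl6 promoter: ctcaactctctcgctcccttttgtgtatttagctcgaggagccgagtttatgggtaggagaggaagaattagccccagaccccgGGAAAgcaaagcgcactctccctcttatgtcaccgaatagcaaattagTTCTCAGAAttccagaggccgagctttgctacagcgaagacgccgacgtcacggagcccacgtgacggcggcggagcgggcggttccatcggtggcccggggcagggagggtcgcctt

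The Il21 window held 3 GGAAA matches and 1 TGCTGA match, and the Bcl6 window 1 GGAAA and 1 TTCNNNGAA match. The second Bcl6 window held 3 of each of these. Neither the Slamf6 nor the Cd200 window matched any of the 4 motifs. Of all 32851 windows of this length, 55.6% held GGAAA, 16.1% TGCTGA, 7.02% TTCNNNGAA and 6.75% TGANTCA. Some matches share bases, as where GGAAA overlaps TTCNNNGAA in the second Bcl6 window. A match describes the letters only.

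Throughout, a level is the log2 processed signal minus the 75th percentile of its array, so 0 is the signal of a probe at that percentile, and levels are compared between samples within 1 probe, never between probes. Differences are log2 values from limma with their standard error after ±, and a gene was called where its Benjamini-Hochberg adjusted p was under 0.05 over the 17996 genes (limma, 2-sided, n = 2 arrays per group). In whole populations, a lower level can mean fewer cells that express the gene or less RNA per cell, which cannot be told apart.

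Measured against naive cells, CD44hi had 8 of 9 members called higher and 0 lower (0 lower at an unadjusted p under 0.05 in limma), where 13.2% of all tested genes were higher and 14.5% lower. CD44lo had 4 of 9 higher and 0 lower (0 also at an unadjusted p under 0.05), against 4.53% and 0.761% of all genes. In Treg 5 of 9 were higher and 1, Cd40lg, lower, against 11.6% and 10.3% of all genes. These 3 comparisons share the naive arrays, so their counts are not independent. The median difference of the 9 members from naive was 1.34 in CD44lo, 2.33 in CD44hi and 1.86 in Treg, where the median of all tested genes was -0.13, -0.16 and -0.20.

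**Figure D1:**
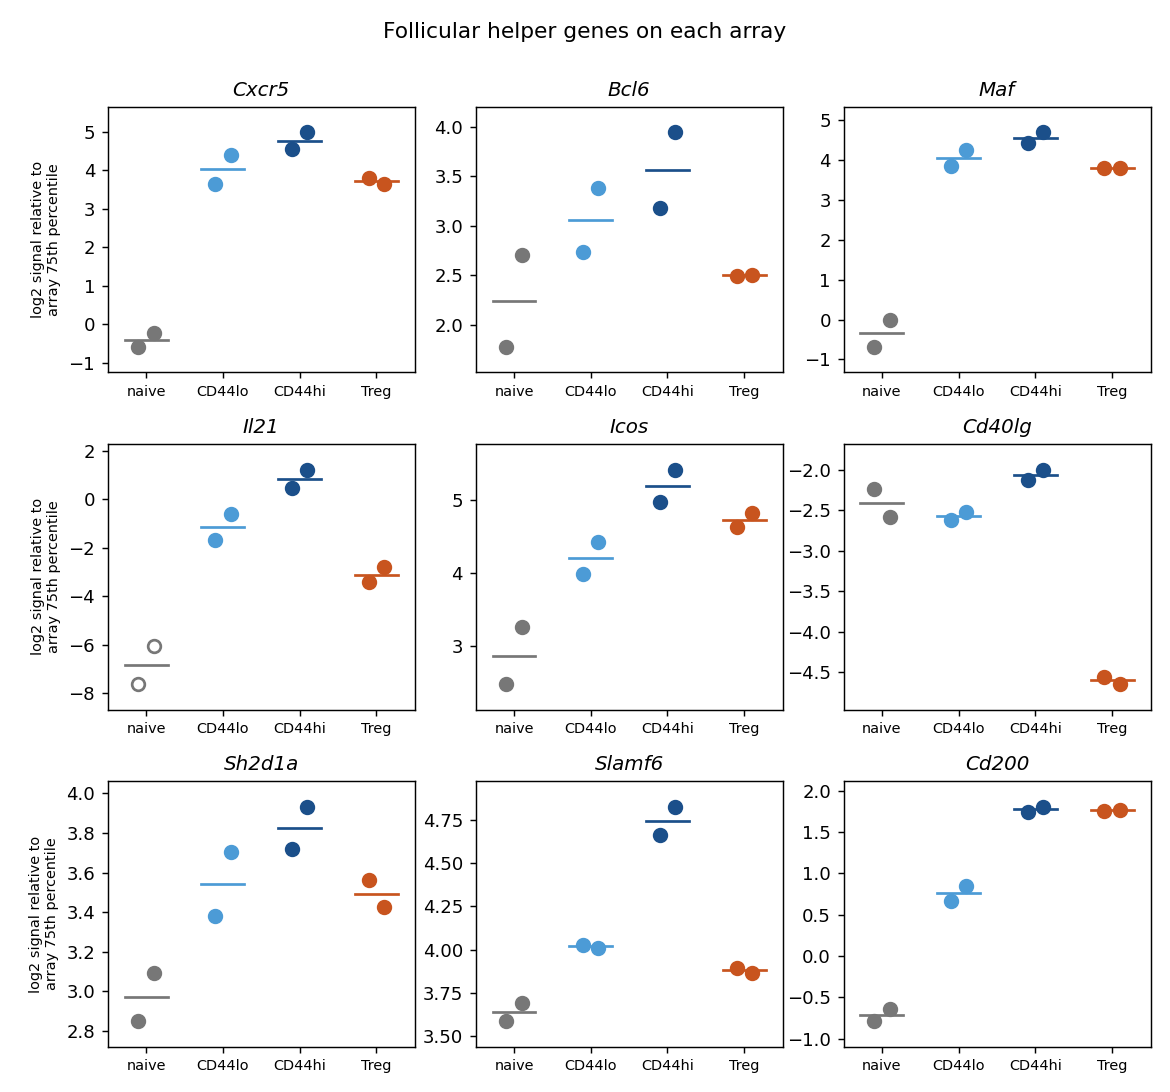
Level of each of the 9 genes on each of the 8 arrays (brightest probe; y axis, log2 signal relative to the array's 75th percentile, a separate scale per gene; bars, group means; open points, not well above background). The CD44hi mean is the highest for all 9 genes, and the Cd40lg levels of the Treg arrays (-4.56 and -4.65) lie below all others.

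Cxcr5, which encodes the receptor for the follicle chemokine CXCL13, was at -0.58 and -0.22 on the naive arrays, 3.65 and 4.39 on CD44lo, 4.54 and 4.98 on CD44hi, and 3.79 and 3.64 on Treg. All 6 arrays of the other groups lay far above the naive pair, and among these 6 only CD44lo and Treg overlapped. The difference from naive was 4.42 ± 0.29 in CD44lo (21.4-fold, adjusted p = 0.000372), 5.16 ± 0.29 in CD44hi (35.8-fold, adjusted p = 7.81e-05) and 4.12 ± 0.29 in Treg (17.4-fold, adjusted p = 0.000196). No call of Cxcr5 against naive was lost on leaving out any 1 array (adjusted p up to 0.00731). The CD44hi arrays stood above CD44lo by 0.74 ± 0.29, which missed the threshold (adjusted p = 0.194; 95% interval 0.04 to 1.44). Treg against CD44hi gave -1.04 ± 0.29 (adjusted p = 0.0885; interval -1.74 to -0.35), and Treg against CD44lo -0.30 ± 0.29 (adjusted p = 0.664; interval -1.0 to 0.39). The Treg to CD44hi difference passed the threshold under normexp background correction (adjusted p = 0.0352).

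Bcl6, the transcriptional repressor at the centre of the programme, had differences close in size to the spread within the naive, CD44lo and CD44hi pairs. Its level was 1.78 and 2.71 on naive, 2.74 and 3.38 on CD44lo, 3.19 and 3.94 on CD44hi, and 2.50 and 2.50 on Treg. Both Treg arrays fell between the 2 naive arrays, and CD44lo and CD44hi overlapped. CD44hi exceeded naive by 1.32 ± 0.40 (2.49-fold, adjusted p = 0.0498), at the edge of the threshold. This call was lost without naive 1, where the difference was 0.85 (adjusted p = 0.144), and without either CD44lo array, CD44hi 2 or either Treg array (adjusted p up to 0.221); it was also lost with slide as a block (adjusted p = 0.0685). Without the filter on dim probes the call was lost as well (adjusted p = 0.116). The same held with the mean of a gene's probes (adjusted p = 0.0555) and with only the 2 groups in the fit (adjusted p = 0.106). On slide 1 the difference between CD44hi and naive was 0.47 and on slide 2 it was 2.16. CD44lo was above naive by 0.81 ± 0.40 (adjusted p = 0.296; interval -0.14 to 1.76) and Treg by 0.25 ± 0.40 (adjusted p = 0.651; interval -0.70 to 1.20), neither past the threshold.

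Maf, which encodes the transcription factor c-Maf, followed the same order of groups as Cxcr5. At its brightest probe it was at -0.68 and -0.01 on naive, 3.87 and 4.25 on CD44lo, 4.43 and 4.70 on CD44hi, and 3.81 and 3.81 on Treg. The naive pair lay below all other arrays, and the CD44hi pair above them. Differences from naive were 4.40 ± 0.26 in CD44lo (21.1-fold, adjusted p = 0.000284), 4.91 ± 0.26 in CD44hi (adjusted p = 6.45e-05) and 4.15 ± 0.26 in Treg (17.8-fold, adjusted p = 0.000126). CD44hi against CD44lo was 0.51 ± 0.26 (adjusted p = 0.315; interval -0.12 to 1.13), and Treg against CD44hi was -0.75 ± 0.26 (adjusted p = 0.156; interval -1.38 to -0.13).

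The 4 Maf probes printed above gave differences of unequal size. At the most upstream probe CD44lo was 1.25 ± 0.23 above naive (adjusted p = 0.0265), CD44hi 1.48 ± 0.23 (adjusted p = 0.00425) and Treg 0.70 ± 0.23, which missed the threshold (adjusted p = 0.0711). This probe was well above background on all naive arrays, with levels of 1.67 and 1.61. The second probe was 4.97 ± 0.31 above naive in CD44lo, 5.45 ± 0.31 in CD44hi and 4.51 ± 0.31 in Treg, and was well above background on 1 of the 2 naive arrays. The array assigns the most upstream and the distal probe to Maf each through a transcript other than that of the brightest. The distal probe was not well above background in naive. Against a floor put in place of the dim naive signal, the distal probe was 42.4-fold higher in CD44lo, 77.8-fold in CD44hi and 39.7-fold in Treg. The fitted differences had adjusted p = 0.000148, 4.02e-05 and 5.45e-05 in limma. This floor is, per naive array, the lowest signal among probes well above background or the probe's own signal, whichever is higher. It is no limit of detection, since some brighter probes were not well above background. On naive 2 that lowest signal was -5.83, and the second Maf probe, at -5.74, was not well above background. Folds against the floor are therefore not minimums. All 4 probes kept the order CD44hi, CD44lo, Treg, naive.

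**Figure D2:**
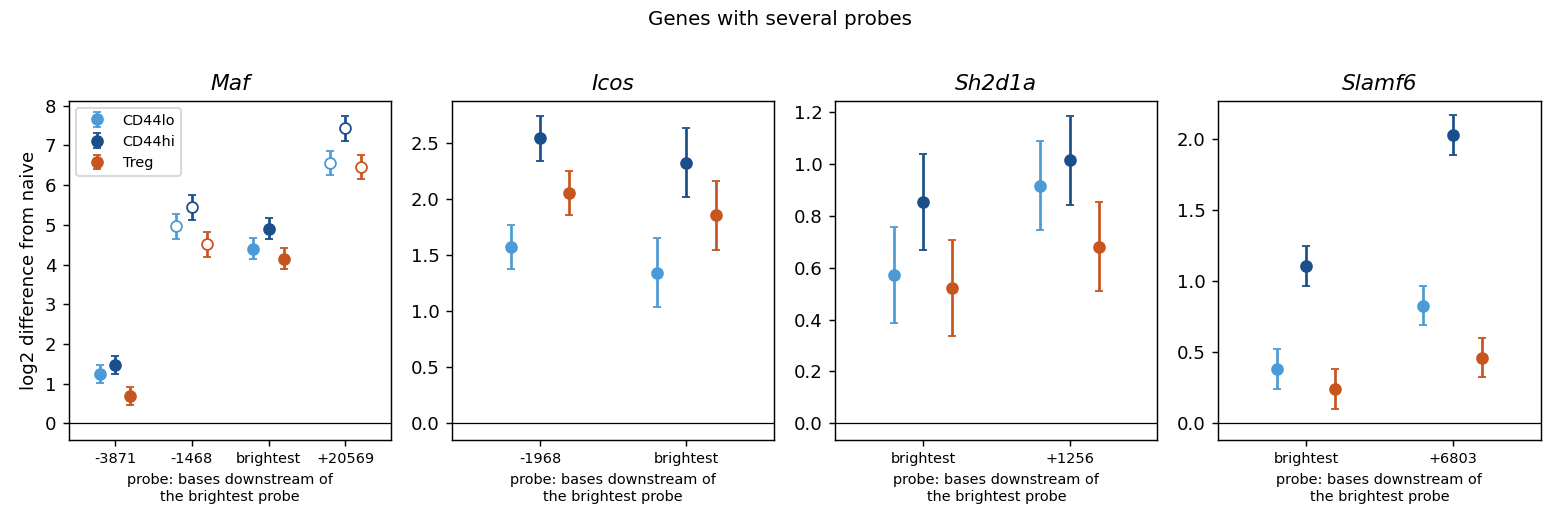
Log2 difference from naive (y axis, with points for fitted values and bars for 1 standard error) at each probe of the 4 genes that have several. Probes are ordered in the direction of transcription by distance on the genome from the brightest probe (x axis, bases). Open points mark probes not well above background on at least 1 naive array; at Maf the most upstream probe gives 0.70 to 1.48 and the brightest 4.15 to 4.91.

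Il21 encodes the cytokine IL-21, which drives B cells in the germinal centre, and it separated all 4 groups. Its probe was not well above background on either naive array, where it read -7.62 and -6.07. It read -1.68 and -0.60 on CD44lo, 0.46 and 1.23 on CD44hi, and -3.42 and -2.80 on Treg, so no groups overlapped. Against the naive floor described for Maf, CD44lo was 29.7-fold higher (adjusted p = 0.00246), CD44hi 117-fold (adjusted p = 0.000247) and Treg 7.60-fold (adjusted p = 0.0061). These folds are not minimums. The fitted differences behind these p-values were 5.70, 7.69 and 3.74, and depended on how the dim naive signal was treated. Under normexp background correction they were 2.55, 4.35 and 0.91, the last no longer past the threshold (adjusted p = 0.0772), and with the authors' deposited values 3.08, 4.93 and 1.44.

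Where Il21 was above background in both groups, Treg lay 3.95 ± 0.60 below CD44hi (15.5-fold, adjusted p = 0.0108). The call was lost without CD44hi 2 or Treg 1 (adjusted p up to 0.0803). On slide 1 the difference was -3.88 and on slide 2 it was -4.02. CD44hi was 1.99 ± 0.60 above CD44lo (adjusted p = 0.103; interval 0.55 to 3.42) and Treg 1.97 below it (-1.97 ± 0.60, adjusted p = 0.137; interval -3.40 to -0.53). Neither passed in the main fit, while under normexp correction both did (adjusted p = 0.0127 and 0.026).

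Icos, the inducible costimulator, rose in the CD44hi and Treg groups. Its level at the brightest probe was 2.48 and 3.26 on naive, 3.99 and 4.43 on CD44lo, 4.97 and 5.42 on CD44hi, and 4.63 and 4.82 on Treg. The groups did not overlap, in the order CD44hi, Treg, CD44lo, naive. CD44hi exceeded naive by 2.33 ± 0.31 (5.02-fold, adjusted p = 0.00227) and Treg by 1.86 ± 0.31 (3.62-fold, adjusted p = 0.00707; 0.0546 without Treg 2). The CD44lo difference of 1.34 ± 0.31 missed the threshold (adjusted p = 0.0633) but passed at the gene's other probe, 1968 bases upstream, with 1.57 ± 0.20 (adjusted p = 0.00542). That probe also placed CD44hi 0.97 ± 0.20 above CD44lo (adjusted p = 0.0305), against 0.98 ± 0.31 at the brightest (adjusted p = 0.113).

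Cd40lg, the ligand that engages CD40 on B cells, was lowest in Treg, where the other 8 members were lowest in naive. It was at -2.24 and -2.58 on naive, -2.62 and -2.52 on CD44lo, -2.13 and -2.00 on CD44hi, and -4.56 and -4.65 on Treg. Naive and CD44lo overlapped, CD44hi lay just above them, and the Treg pair was far below every other array. Treg fell by 2.19 ± 0.17 against naive (4.58-fold, adjusted p = 0.000273), by 2.03 ± 0.17 against CD44lo (4.09-fold, adjusted p = 0.00238) and by 2.54 ± 0.17 against CD44hi (5.82-fold, adjusted p = 0.000686). Each of these calls held on leaving out any 1 array (adjusted p up to 0.0291). With the authors' deposited values the decrease against CD44lo was smaller (-1.30), and under normexp correction it was -1.31 against CD44lo and -1.68 against CD44hi. CD44hi exceeded naive by 0.35 ± 0.17 (adjusted p = 0.17; interval -0.06 to 0.75) and CD44lo differed from naive by -0.16 ± 0.17 (adjusted p = 0.568; interval -0.57 to 0.24). Without naive 1 the CD44hi difference from naive was 0.52 and passed (adjusted p = 0.0207).

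Cd200, a membrane ligand that restrains cells bearing its receptor, showed a step from naive to CD44lo and a second to CD44hi and Treg. It was at -0.79 and -0.64 on naive, 0.67 and 0.85 on CD44lo, 1.75 and 1.80 on CD44hi, and 1.75 and 1.77 on Treg. Only CD44hi and Treg overlapped. The difference from naive was 1.47 ± 0.15 in CD44lo (2.78-fold, adjusted p = 0.00193), 2.49 ± 0.15 in CD44hi (5.62-fold, adjusted p = 8.87e-05) and 2.47 ± 0.15 in Treg (5.55-fold, adjusted p = 0.000101). CD44hi exceeded CD44lo by 1.02 ± 0.15 (adjusted p = 0.00877; lost without CD44lo 1 or CD44hi 2, up to 0.0966) and Treg exceeded it by 1.00 ± 0.15 (adjusted p = 0.0138; lost on leaving out any CD44lo or Treg array, up to 0.139). Treg and CD44hi differed by -0.02 ± 0.15 (adjusted p = 0.972), with an interval of -0.36 to 0.33.

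Sh2d1a encodes SAP, the adaptor that carries SLAM receptor signals, and at its brightest probe it differed by less than 1 log2 unit in every comparison. Its level was 2.85 and 3.09 on naive, 3.38 and 3.71 on CD44lo, 3.72 and 3.93 on CD44hi, and 3.56 and 3.43 on Treg. The naive arrays were the lowest, and CD44lo and Treg overlapped. CD44hi exceeded naive by 0.85 ± 0.19 (1.81-fold, adjusted p = 0.0164; 0.107 without CD44hi 2, and 0.0526 without the filter on dim probes). CD44lo and Treg exceeded naive by 0.57 ± 0.19 (adjusted p = 0.172) and 0.52 ± 0.19 (adjusted p = 0.0889), and at the other Sh2d1a probe, 1256 bases downstream, by 0.92 ± 0.17 (adjusted p = 0.0294) and 0.68 ± 0.17 (adjusted p = 0.0339).

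Slamf6, a SLAM family receptor that binds its own kind on neighbouring cells and signals through SAP, was highest in CD44hi. Its brightest probe, whose 60 bases span 1329 bases of genome (chr1:171906779-171908107, plus strand, mm7), read 3.59 and 3.69 on naive, 4.03 and 4.01 on CD44lo, 4.66 and 4.82 on CD44hi, and 3.90 and 3.87 on Treg. The CD44hi pair stood above all other arrays and no groups overlapped. CD44hi exceeded naive by 1.11 ± 0.14 (2.15-fold, adjusted p = 0.00189), CD44lo by 0.72 ± 0.14 (adjusted p = 0.0252) and Treg by 0.86 (-0.86 ± 0.14 for Treg against CD44hi, adjusted p = 0.0141). The call against CD44lo was lost without any 1 of the 6 arrays other than naive (adjusted p up to 0.192), and the call between Treg and CD44hi without any 1 of their 4 arrays (adjusted p up to 0.115). With slide as a block the difference between CD44hi and CD44lo had an adjusted p of 0.0514. The second Slamf6 probe, 6803 bases of genome downstream, gave 2.03 ± 0.14 for CD44hi against naive (adjusted p = 0.000151), 1.20 ± 0.14 against CD44lo (adjusted p = 0.00438) and -1.56 ± 0.14 for Treg against CD44hi (adjusted p = 0.00165). There CD44lo also exceeded naive, by 0.83 ± 0.14 (adjusted p = 0.0187).

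Between the 3 groups other than naive, fewer members were called. CD44hi against CD44lo gave 2 of 9 higher, Slamf6 and Cd200, and 0 lower (6 higher and 0 lower at an unadjusted p under 0.05 in limma), where 6.06% of all genes were higher and 3.31% lower. The count was 0 without CD44lo 1 or CD44hi 2, 1 without CD44lo 2, CD44hi 1 or either Treg array, and 3 without either naive array, when Cd40lg was added. Treg against CD44lo gave 1 higher, Cd200, and 1 lower, Cd40lg, against 3.70% and 1.87% of all genes; the higher count was 0 when any CD44lo or Treg array was left out. Treg against CD44hi gave 0 higher (0 higher and 6 lower at an unadjusted p under 0.05) and 3 lower, Il21, Cd40lg and Slamf6, against 4.15% and 4.04% of all genes. Without CD44hi 2 or Treg 1 the count of lower members was 1, and without CD44hi 1 or Treg 2 it was 2. By arrays alone, 8 of the 9 members lay lower on both Treg arrays than on both CD44hi arrays, as did 32.1% of all tested genes, and Cd200 was the exception.

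**Figure D3:**
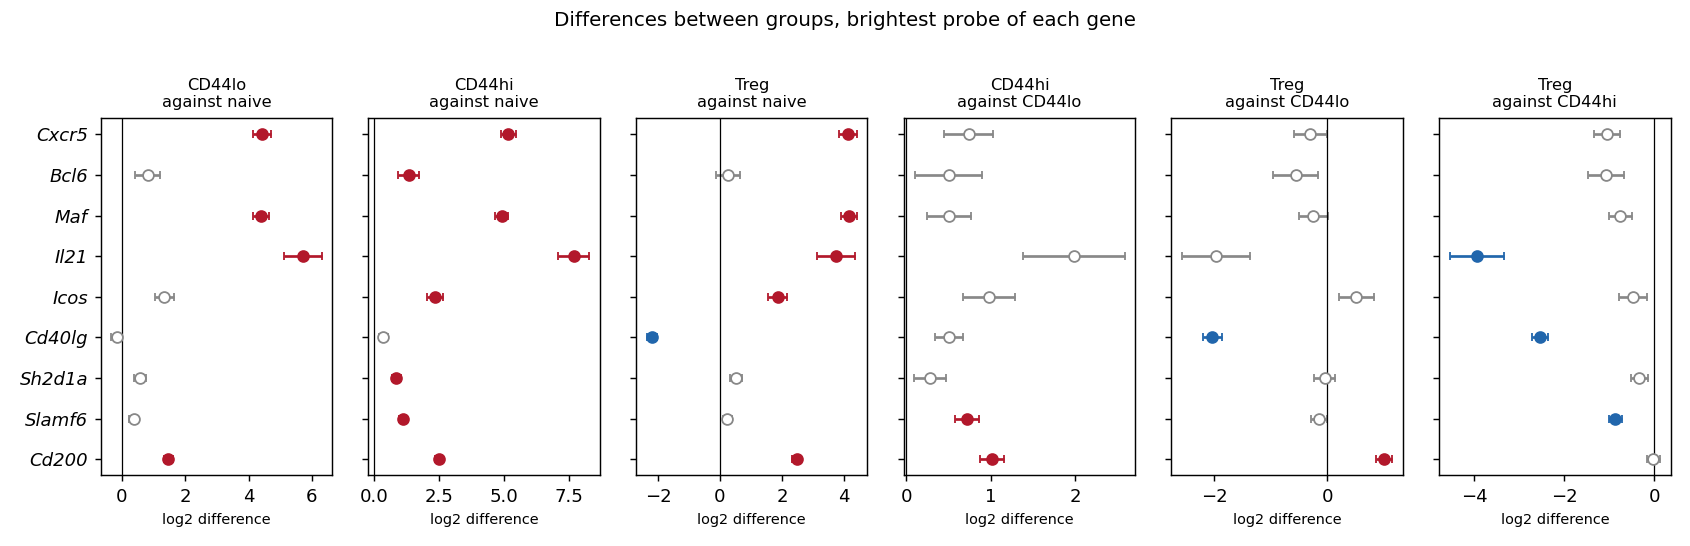
Log2 difference of each gene (x axis; points, fitted values; bars, 1 standard error) in the 6 comparisons, with filled red for called higher, filled blue for called lower and open grey for not called. CD44hi against naive shows 8 filled points, and Cd40lg is the 1 gene called lower in all 3 comparisons of Treg.

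On the scale that runs from the naive mean (0%) to the CD44hi mean (100%) of each gene, the 8 members that were higher in CD44hi differed in where the other groups lay. Cxcr5 and Maf had covered 85.7% and 89.7% of that distance in CD44lo and 79.8% and 84.6% in Treg. Slamf6 lay at 34.5% in CD44lo and 22.0% in Treg, and Bcl6 at 61.7% and 19.2%. Icos and Cd200 lay further along in Treg (79.8% and 99.4%) than in CD44lo (57.7% and 59.2%). The median over all 2383 genes higher in CD44hi than in naive was 46.7% in CD44lo and 76.1% in Treg. These positions are descriptions of 2 arrays per group, with no test.

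Across the 8 arrays, 2 in each group, the levels of Cxcr5 and Maf had a Pearson correlation of 0.997, and Cd40lg had correlations from -0.39 to 0.40 with the other 8 members. Such values mostly reflect the 4 group means and carry no test. By the same measure over all tested genes with a current symbol, the most similar patterns to Cxcr5 were Spock2 (0.999) and Grhl1 (0.998), and to Maf Hic1 and Lag3 (both 0.997). Il12rb1 and Trex1 were nearest to Cd200 (both 0.997), and Cd160 (0.999) and Zfp821 (0.994) to Icos. For Il21 the nearest were 1700001O22Rik and Sostdc1 (both 0.993), for Sh2d1a Ntf5 (0.991) and Nr2f6 (0.988), and for Slamf6 Luzp1 (0.988) and Il2 (0.987). Bcl6 was most like 4933427D14Rik (0.988) and Actl6b (0.968), and Cd40lg most like Ssh3 (0.991) and Abhd15 (0.981).

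The wider follicular helper programme was followed through 76 further genes in 8 roles, of which 73 were matched on the array and 72 tested. Against naive, CD44lo had 16 of 72 higher and 1 lower, where 4.53% of all tested genes were higher and 0.761% lower. CD44hi had 28 higher and 12 lower, against 13.2% and 14.5% of all genes, so the lower count is near the share of all genes. Treg had 20 higher and 13 lower, against 11.6% and 10.3%. Cytokines and their receptors had 6 of 11 members of the role higher in CD44lo, 7 in CD44hi and 5 in Treg. Ifng, the type 1 cytokine interferon-gamma, rose by 6.10 ± 0.46 in CD44lo (adjusted p = 0.000605), 8.66 ± 0.46 in CD44hi (adjusted p = 6.45e-05) and 6.27 ± 0.46 in Treg (adjusted p = 0.000231). Il10, a regulatory cytokine, was 21.4-fold above the naive floor described for Maf in CD44lo and 27.5-fold in CD44hi. Ctla4, an inhibitory receptor, rose by 4.66 ± 0.22 in CD44lo and by 6.05 ± 0.22 in Treg.

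Among 15 tested transcription factors that favour the follicular helper state, 1 was higher in CD44lo, 5 were higher and 2 lower in CD44hi, and 3 were higher and 3 lower in Treg. The counts of 1 in CD44lo and of 2 lower in CD44hi are near the shares of all genes given above. Irf4 was among the higher in all 3 groups, Ascl2 and Batf were so called in CD44hi, and Lef1 and Tcf7 were lower in CD44hi and Treg. In CD44hi the call of Ascl2 was lost without either naive array or CD44hi 2 (adjusted p up to 0.0903), that of Batf without naive 1 or CD44hi 2 (up to 0.136) and that of Tcf7 without any array other than naive (up to 0.131). Of the 10 factors that restrain the state, 3 were higher and 0 lower in CD44lo (3 lower at an unadjusted p under 0.05 in limma), 4 higher and 3 lower in CD44hi, and 3 higher and 3 lower in Treg. Tbx21, Prdm1 (Blimp-1) and Gfi1 were among the higher in each group, the last pair not in CD44lo without CD44lo 2 (adjusted p = 0.0547 and 0.0887). The lower were Bach2, Foxp1 and Foxo1 in CD44hi and Bach2, Foxp1 and Klf2 in Treg, of which Bach2, a repressor of effector genes, differed from naive by -2.94 ± 0.19 in CD44hi (adjusted p = 0.000134) and -1.32 ± 0.19 in Treg (adjusted p = 0.00424). In Treg the call of Foxp1 was lost without any array other than naive 1 (up to 0.248) and that of Klf2 without Treg 2 (0.0978). Tbx21, the T-bet gene of type 1 helper cells, rose by 6.68 ± 0.38 in CD44hi (adjusted p = 7.97e-05). Of the 9 tested costimulatory and inhibitory receptors, 3 were higher in CD44lo, 5 in CD44hi and 4 in Treg, Pdcd1 in each of them. The SLAM family and SAP partners had 0 of 8 higher and 0 lower in CD44lo. They had 3 of 8 higher and 1 lower in CD44hi, and 1 higher and 2 lower in Treg. The counts of 1 are near the shares of all genes, 14.5% lower in CD44hi and 11.6% higher in Treg.

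Between the other groups, CD44hi against CD44lo had 8 of 72 of these genes higher and 6 lower (6.06% and 3.31% of all genes), led by Ifng (2.56 ± 0.46, adjusted p = 0.0196; lost without CD44lo 1 or CD44hi 2, up to 0.106) and Tbx21 (2.51 ± 0.38, adjusted p = 0.0105; 0.0646 without CD44lo 1). Treg against CD44lo had 7 higher and 4 lower (3.70% and 1.87% of all genes), led by Il4 (-3.38 ± 0.55, adjusted p = 0.0191; up to 0.107 without a CD44lo or Treg array), a cytokine that follicular helper cells also make, and Il2ra (3.26 ± 0.18, adjusted p = 0.000896). Treg against CD44hi had 8 higher and 12 lower (4.15% and 4.04% of all genes), led by the same genes, Il4 (-4.65 ± 0.55, adjusted p = 0.00431) and Il2ra (4.29 ± 0.18, adjusted p = 0.000245). Il2ra, which gives the IL-2 receptor its high affinity, was also the most changed in Treg against naive (7.17 ± 0.18). Single arrays moved some of these counts. Without naive 1 the lower count in CD44lo against naive was 14. Without CD44lo 1 the count in CD44hi against CD44lo was 1 higher and 2 lower, and in Treg against CD44lo it was 1 higher and 0 lower.

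**Figure D4:**
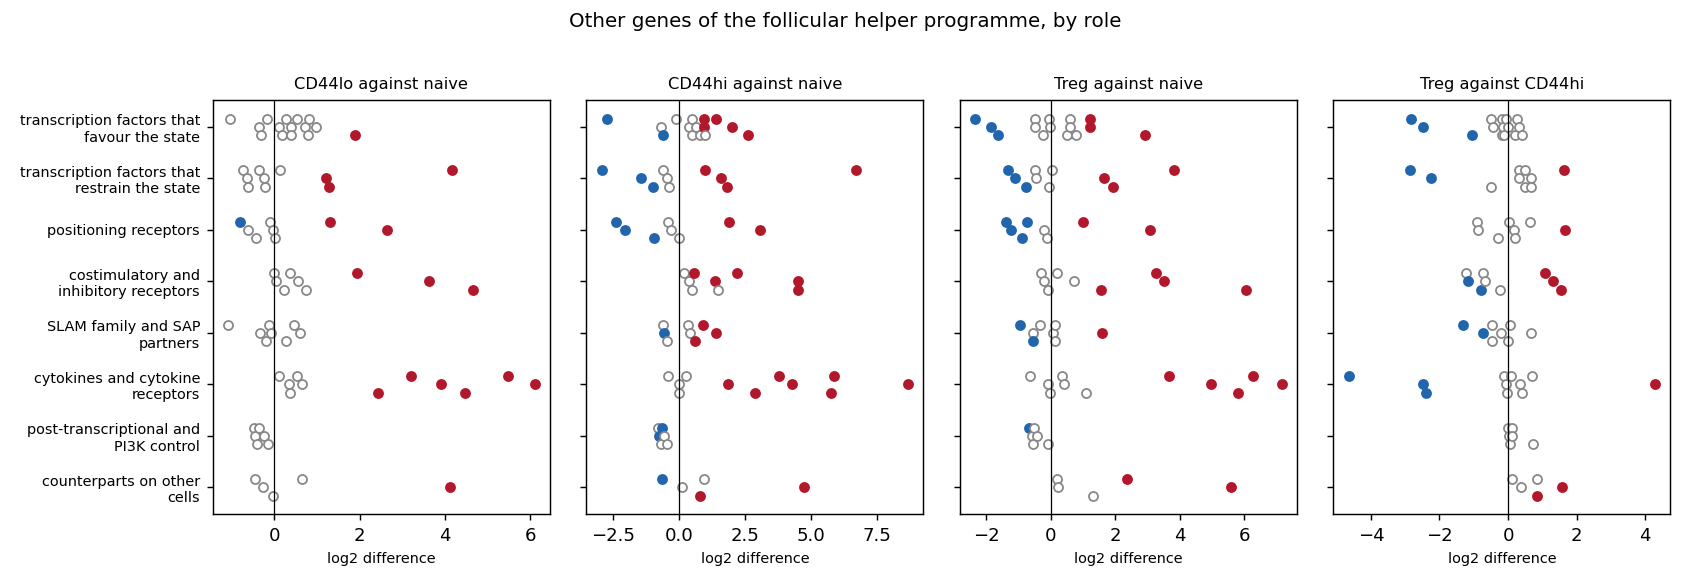
Log2 difference (x axis) of the 72 tested genes of the wider programme by role (y axis, 1 point per gene, spread vertically for legibility only) in 4 of the comparisons; red, called higher; blue, called lower; open, not called. Cytokines and their receptors hold 7 red points in CD44hi against naive, and Il4 lies at -4.65 in Treg against CD44hi.

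The groups and their purity bear on all these values. Foxp3, which defines regulatory T cells, had a mean level of 2.73 in Treg, 0.59 in CD44lo, -0.17 in CD44hi and -5.05 in naive, so CD44lo was 5.64 ± 0.28 and CD44hi 4.88 ± 0.28 above naive (adjusted p = 0.000169 and 7.97e-05). Cd44 was highest in CD44hi (4.44, against 2.94 in CD44lo, 3.45 in Treg and 2.32 in naive). Tnfrsf4, the Ox40 gene, was lowest in naive (1.07), 3.02 in CD44lo, 3.27 in CD44hi and 4.58 in Treg. Cd4 was not called in any comparison, with means from 0.13 to 0.84. All 9 T cell markers were well above background on every array, with summed signals of 375 to 648 times the 75th percentile.

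Some markers of other cells were detected, and their levels varied between groups. Of 15 B cell markers on the array, 8 to 11 were well above background, and their summed signal was 3.79 to 4.46 times the 75th percentile on naive, 5.27 to 5.36 on CD44lo, 4.56 to 5.24 on CD44hi and 9.11 to 9.25 on Treg. Cd79a lay between -6.44 and -5.62 on the 8 arrays, while Pax5 was not well above background on 5 arrays and Ms4a1 on 3, all naive or CD44lo 1. Cd79b rose from -3.04 and -2.01 on naive to 1.93 and 1.82 on Treg, and Cd22 from below background on naive to 1.07 and 1.37 on CD44hi. Of 14 myeloid markers, summed at 6.33 to 10.8, Itgax was highest on the naive arrays (-3.04 and -2.67), Csf1r lay between -4.18 and -2.65, and Lyz2 was highest on CD44hi (-0.35 and -0.76). The 10 CD8 and NK cell markers summed to 12.7 to 28.6, with Cd8a below background on 4 arrays, Ncr1 on 7, Cd8b1 highest on naive (3.12 and 3.74) and Klrb1c highest on CD44hi (-0.39 and -0.39). The part of such cells in the members' differences was not tested.

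Signal strength differed between arrays. The processed signal had a 75th percentile of 639 on naive 2, 991 on naive 1 and 1045 to 1337 on the other 6, and between 59.2% (naive 2) and 68.8% of probes were well above background. No member was lost by this filter. Each of the 2 slides held 1 array of every group, and the sign of every called member difference was the same on both slides.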

How the data were processed

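Sorted-cell RNA from 8 samples was column-purified with a DNase step, amplified with a linear kit and hybridized with Cy3 to single-colour Agilent arrays, per the labels' protocols. Per the file headers, Agilent's Feature Extraction 9.5.1.1 read the images. The deposited scanner files hold spot intensity that was background-subtracted but not normalized between arrays, with flags per spot. The authors' deposited value table is on a log2 scale with column medians of 6.86 to 6.88, and its normalization is not given in the sources used here beyond the submitters' processing notes, which name limma. The log2 processed signal minus each array's 75th percentile was tested with limma 3.58.1 in R 4.3.3, with the 8 arrays in 1 unblocked model, on 17996 genes represented by their brightest probe. Probe symbols were updated through accessions and older symbols. A test on 2 against 2 arrays by exact permutation cannot go below p = 0.333. The limma procedure was tested on simulated arrays, in which differences of known size were added to Treg. Against naive it called 16 of 50 differences of 1 log2 unit and 33 of 50 of 2 units. Of those of 3 units it called 47 of 50, and of those of 4 units 47 of 50, so in that setting smaller differences were often missed. Only these genes were changed there, a smaller share than the 11.6% called higher and 10.3% lower in Treg against naive. Recovery in the data may therefore differ. The number of arrays limits the precision. The members, the further programme genes and the marker lists were chosen with earlier results of these data known, so they are no independent evidence. Named genes were all members, per comparison the called programme genes with the largest differences (3 against naive, 2 otherwise), label and marker genes (a few of which are not reported here), and the 2 genes most correlated with each member; Irf4, Ascl2, Batf, Lef1, Tcf7, Prdm1, Gfi1, Bach2, Foxp1, Foxo1, Klf2, Pdcd1, Cd79b and Cd22 were chosen after their values were seen. Alternatives were normexp correction (offset 50), quantile normalization, the authors' values, filters, probe averaging, other variance models, replicate and slide blocks, and leaving out each array.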

Additional observations from a re-analysis of the deposited data

How the results depend on the processing

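No member difference that was called changed sign under any alternative. Of the called ones, refits with other settings kept 249 past the threshold and lost 12, and refits without 1 array kept 174 and lost 26. The uncalled ones passed in 35 refits with other settings and 4 without 1 array. The cause of these changes was not tested. With quantile normalization or the authors' values, 7 members were higher in CD44lo than in naive, against 4. For CD44hi against CD44lo the 2 higher members became 4 with the authors' values, 1 without a filter on dim probes and 1 with the slide block. For Treg against CD44lo, 0 were higher without the filter, and 2 were lower with normexp correction or the authors' values. With 1 array left out, the counts were 0 to 3 higher in CD44hi against CD44lo, 0 to 1 higher in Treg against CD44lo and 1 to 3 lower in Treg against CD44hi.

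Replicate numbers are shared between groups, and the deviations of same-numbered samples correlated at 0.056 to 0.332. The labels do not say what a number marks, so pairing was not established. With the replicate block, 4 members were higher in CD44hi than in CD44lo, against 2, and 2 were lower in Treg than in CD44lo, against 1. The block also brought Icos in CD44lo against naive (adjusted p = 0.00958) and Cxcr5 in Treg against CD44hi (adjusted p = 0.046) past the threshold in limma.

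For the 72 further programme genes, counts without a filter on dim probes were 3 higher in CD44hi against CD44lo, 5 higher in Treg against CD44hi, 3 higher and 1 lower in Treg against CD44lo, 8 lower in Treg against naive and 0 lower in CD44lo against naive. The authors' values gave 13 higher in Treg against CD44hi, and 11 higher and 10 lower in Treg against CD44lo. A fit of only the groups compared gave 11 higher in Treg against CD44lo, and 6, 8 and 0 lower in CD44hi, Treg and CD44lo against naive. Normexp correction gave 2 lower in CD44lo against naive and 7 lower in Treg against CD44lo, the intensity trend 3 and 9, and the slide block 0 in the former. The mean of a gene's probes gave 8 lower in Treg against naive. Leaving out 1 array gave 1 to 11 higher and 2 to 10 lower in CD44hi against CD44lo, 4 to 11 higher and 4 to 16 lower in Treg against CD44hi, and 1 to 11 higher and 0 to 8 lower in Treg against CD44lo. Against naive, the lower counts were 7 to 19 in CD44hi, 0 to 14 in CD44lo and 5 to 18 in Treg.

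Over all genes, counts ranged more widely over the alternatives. Against naive they were 476 to 2391 higher and 30 to 4800 lower in CD44lo, 1611 to 3317 and 824 to 5914 in CD44hi, and 1333 to 3111 and 456 to 6089 in Treg. They were 385 to 1506 and 128 to 1259 for CD44hi against CD44lo, 106 to 961 and 82 to 680 for Treg against CD44lo, and 246 to 1377 and 289 to 1258 for Treg against CD44hi. Signal over background limits Il21 most, whose naive level was not well above background.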
